A study of Mus musculus with 18 samples.

Results

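In undifferentiated mouse embryonic stem cells (ESC), the promoters of 3 developmental regulators were compared with the promoters of 3 genes of the red blood cell lineage, all captured from the same libraries by NG Capture-C. This method ligates DNA fragments that lie close together in crosslinked nuclei and then enriches, with oligonucleotides, the ligation products of chosen fragments, called viewpoints, so that every sequenced partner of a viewpoint is 1 interaction. The developmental viewpoints were the promoters of Eomes, Foxa2 and Lhx1, and the erythroid viewpoints were those of Hba, Hbb and Slc25a37. With 3 ESC libraries there were 18 viewpoint columns, 9 of each kind, of 54 in the promoter capture and 108 in the series, which held 18 samples. ESC were of strain 129/Sv//EV, grown on gelatin with serum and LIF and sampled on day 0. Where other cells are given for comparison, they were definitive endoderm (DE) derived from 129/Sv//EV ES cells by day 5 of differentiation with Activin A and EGF, and erythrocytes from the spleens of C57BL/6 mice treated with phenylhydrazine, so in any comparison with erythrocytes the strain and the cell type change together and cannot be told apart. Each of these groups had 3 libraries. The labels do not say whether libraries of ESC came from separate cultures. The p-values of permutation tests therefore measure only the spread between these libraries.

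Eomes, a T-box transcription factor, and Foxa2, a forkhead factor, act in the specification of definitive endoderm, and Lhx1 is a LIM homeobox factor of the early embryo. In pluripotent cells the promoters of such regulators are largely silent and commonly lie in CpG islands occupied by Polycomb complexes, and contacts between such promoters over long distances have been described in these cells. Hba and Hbb are the adult alpha and beta globin genes and Slc25a37 encodes mitoferrin, the iron importer of erythroid mitochondria. The globin viewpoints each covered a pair of nearly identical genes, Hba-a1 with Hba-a2 and Hbb-b1 with Hbb-b2, whose interactions are not separated in the columns, and distances for them were measured to the nearer of both starts.

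The 6 viewpoints were not alike in promoter sequence, and the 2 kinds were not separated by it. CpG dinucleotides, searched as CG on either strand, were 0.614 to 0.786 times as frequent as base composition gives in the 2 kb around the starts of Eomes, Foxa2 and Lhx1. The value for Slc25a37 was 0.675, within that range, while Hba-a1 and Hba-a2 had 0.219 and 0.206 and Hbb-b1 and Hbb-b2 had 0.0855 and 0.114. The median over 7780 protein-coding starts on the viewpoint chromosomes was 0.420. The 250 bases before the annotated start follow for 4 of the genes, chosen to set CpG-rich and CpG-poor viewpoints side by side. CpG-rich and CpG-poor refer to the 2 kb values. The bases were read 5′ to 3′ on the strand of the gene from NCBIM37, with CG in capitals. The end of the Hba-a1 stretch recurs at the beginning of that of Hba-a2. The annotated start of Hba-a1 thus lies farther upstream in their shared sequence. Its stretch may miss the bases next to where transcription begins, and annotated starts were not checked.
Foxa2, chr2:147872706-147872955, minus strand: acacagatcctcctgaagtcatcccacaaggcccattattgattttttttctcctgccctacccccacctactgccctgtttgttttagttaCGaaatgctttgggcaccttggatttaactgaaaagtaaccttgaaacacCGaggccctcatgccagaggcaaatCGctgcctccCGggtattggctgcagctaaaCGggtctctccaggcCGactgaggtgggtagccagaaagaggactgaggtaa
Lhx1, chr11:84338924-84339173, minus strand: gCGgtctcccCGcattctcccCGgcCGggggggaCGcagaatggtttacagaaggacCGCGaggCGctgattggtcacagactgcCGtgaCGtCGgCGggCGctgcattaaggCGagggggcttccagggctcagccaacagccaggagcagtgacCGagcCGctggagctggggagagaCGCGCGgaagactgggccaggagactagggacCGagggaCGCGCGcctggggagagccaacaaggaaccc
Hba-a1, chr11:32183261-32183510, plus strand: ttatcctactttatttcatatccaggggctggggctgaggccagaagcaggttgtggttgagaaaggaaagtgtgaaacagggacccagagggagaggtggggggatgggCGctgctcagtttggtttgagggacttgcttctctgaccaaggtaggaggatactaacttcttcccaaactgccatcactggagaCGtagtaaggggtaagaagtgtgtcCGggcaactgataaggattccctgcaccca
Hbb-b1, chr7:110976611-110976860, minus strand: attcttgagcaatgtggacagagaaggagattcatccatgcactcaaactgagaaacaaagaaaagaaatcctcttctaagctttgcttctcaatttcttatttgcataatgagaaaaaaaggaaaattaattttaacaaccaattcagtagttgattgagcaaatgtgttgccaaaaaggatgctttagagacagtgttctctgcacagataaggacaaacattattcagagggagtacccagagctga
Over these 250 bases CG occurred 6 times at Foxa2, 23 times at Lhx1, 3 times at Hba-a1 and 0 times at Hbb-b1. Hba-a2, not printed, had 4. The median was 7 over all 7780 starts, of which 90.5% held at least 1. Foxa2 thus lay below the median in this stretch and above it only over 2 kb.

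The ESC columns held between 5349 and 84184 interactions each. The Hba viewpoint was the deepest, with 55997, 84184 and 52684 interactions in libraries 1, 2 and 3, and the Hbb viewpoint the shallowest, with 5603, 8005 and 5349. The other viewpoints had between 11426 and 22107 per library. The widest 95% Wilson interval reached 1.297 percentage points to either side of a share, and such intervals cover counting error only, because reads without molecular identifiers are not independent molecules. Over 50 kb bins, the chi-square between library pairs of a viewpoint was 1.14 to 2.03 times its degrees of freedom in the 18 pairs. The lowest ratio, for Hbb libraries 1 and 2, had 75 degrees of freedom. No p-value was taken, so the lowest ratios are not shown to exceed sampling noise. Every library was counted.

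Developmental promoters made a larger part of their interactions close by than erythroid promoters did on average, but the difference between kinds was small beside the differences among viewpoints of 1 kind. Within 20 kb of the start lay 20.3%, 19.5% and 17.3% of the Lhx1 interactions, 18.01%, 17.7% and 15.7% of those of Foxa2 and 15.0%, 14.8% and 12.2% of those of Eomes in libraries 1, 2 and 3. Hba had 21.0%, 18.6% and 17.7%, overlapping with Lhx1, whereas Hbb had 11.3%, 10.4% and 9.40% and Slc25a37 had 11.8%, 10.6% and 9.89%. Hbb and Slc25a37 thus lay below every developmental value and Hba did not. The mean over developmental viewpoints was 16.7% ± 1.45 (SD, n = 3 libraries) and that over erythroid viewpoints 13.4% ± 1.20, and the difference was 3.07, 4.11 and 2.75 points within the 3 libraries.

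Between 20 and 500 kb, Hba with 27.1% ± 2.13 and Eomes with 26.0% ± 2.199 were highest and Foxa2 with 17.3% ± 1.28 was lowest, and neighbours in this order overlapped throughout. Developmental viewpoints averaged 21.5% ± 1.93 and erythroid viewpoints 22.4% ± 2.08. The sign of this difference, -0.89 points on average, turned to 1.45 without the Hba viewpoint and to 1.21 without Foxa2.

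On the same chromosome beyond 500 kb, which is called far here, Hbb had the largest share, 36.6%, 38.4% and 35.6%, and Foxa2 the next, 34.5%, 34.7% and 31.9%. These 2 viewpoints of different kinds lay apart from the other 4, whose values were between 20.1% and 25.9%. Developmental viewpoints averaged 26.1% ± 1.32 and erythroid viewpoints 28.7% ± 0.694, and developmental values were lower by 2.19, 2.25 and 3.43 points in the 3 libraries. Without the Hbb viewpoint the mean difference was 1.47 points in the other direction.

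Interactions with other chromosomes (trans) took 35.7% ± 4.63 at developmental and 35.5% ± 3.64 at erythroid viewpoints, and the difference changed sign between libraries, 0.62, -1.48 and 1.48 points. Slc25a37 had the largest trans share, 42.9%, 45.0% and 48.0%, and Hba, with 27.03%, 29.5% and 34.7%, and Hbb, with 27.9%, 28.5% and 36.1%, overlapped at the low end. Library 3 had the largest trans share at all 6 viewpoints. The library number was therefore kept as a block, and each difference between kinds was tested within libraries by an exact two-sided sign-flip permutation test, for which 3 libraries cannot give a p below 0.25. This exact test gave that smallest value for the near, 20 to 500 kb and far shares (adjusted p = 0.281 by Benjamini-Hochberg over 9 measures) and p = 0.75 for trans.

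**Figure D1:**
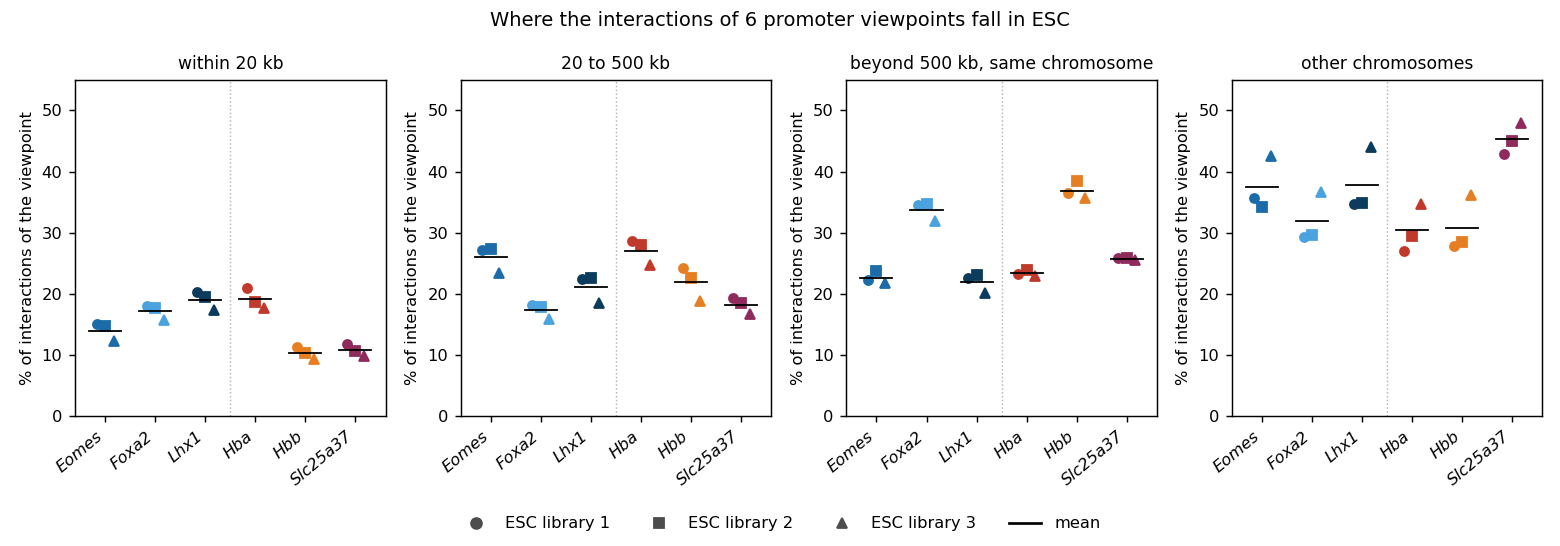
Share of the interactions of each viewpoint (%) within 20 kb, between 20 and 500 kb, beyond 500 kb on the same chromosome and on other chromosomes, with 1 symbol per ESC library and a bar at the mean; the dotted line parts developmental (left) from erythroid viewpoints. Hbb and Foxa2 stand above the other viewpoints beyond 500 kb, and no panel separates all developmental from all erythroid points.

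The fall of interactions with distance differed by little between kinds. The slope of log10 interactions per kb on log10 distance, from 20 kb to 10 Mb, was -1.09 ± 0.0118 (SD, n = 3) over developmental and -1.12 ± 0.0202 over erythroid viewpoints. The difference was 0.04, 0.03 and 0.02 in libraries 1, 2 and 3, again at the smallest p the test allows, 0.25. Hba alone carried this direction. Its slope was -1.28, -1.27 and -1.24, steeper than every other viewpoint, and without it the difference between kinds was -0.04.

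Single curves departed from a straight line in ways that the slope does not show. From 200 to 500 kb to 500 to 1000 kb the Foxa2 curve did not fall, with 16.8 ± 0.290 and 16.7 ± 0.305 interactions per kb per 100000 cis interactions. Over the same step Eomes fell from 26.5 ± 0.539 to 6.90 ± 0.0757, Lhx1 from 22.2 ± 0.787 to 5.46 ± 0.501 and Hba from 18.7 ± 0.407 to 6.42 ± 0.123. Hbb fell less, from 21.8 ± 1.14 to 14.4 ± 0.699, and was still highest of all viewpoints from 1 to 2 Mb with 6.40 ± 0.141, against 2.05 ± 0.0621 for Hba. Beyond 10 Mb, up to 20 Mb, the 6 means lay between 0.264 for Hba and 0.396 for Eomes.

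**Figure D2:**
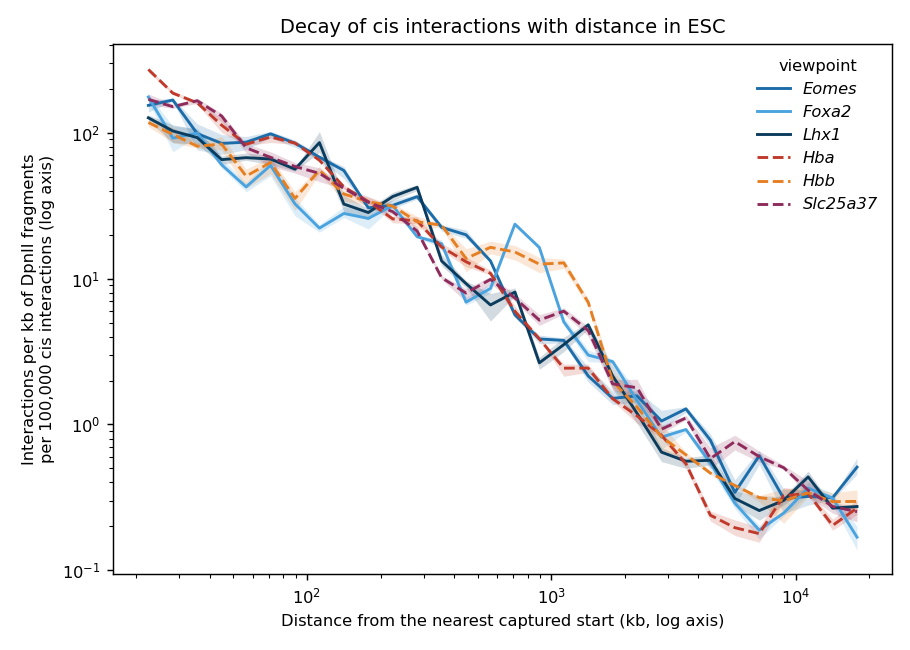
Interactions per kb of DpnII fragments per 100,000 cis interactions (log axis) against distance from the nearest captured start in kb (log axis) for the 6 ESC viewpoints; lines are means of 3 libraries, solid for developmental and dashed for erythroid, and shades span the libraries. Foxa2 has a hump between 500 and 1000 kb and Hbb a shoulder reaching to about 1 Mb, while Lhx1 and Slc25a37 show smaller rises.

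Upstream and downstream sides were used unequally. Of interactions from 20 to 500 kb, 73.4% ± 0.580 lay upstream of Eomes, in the direction away from its transcribed body, and 73.7% ± 0.156 upstream of Lhx1, against 40.8% ± 0.982 at Foxa2. At Hba, Hbb and Slc25a37 the sides were nearly even, with 54.1% ± 0.479, 52.9% ± 0.797 and 54.4% ± 1.38. All 3 developmental values in this range thus lay farther from an even split than the erythroid values. Beyond 500 kb this did not hold for Lhx1, with 46.2% ± 0.224 upstream against 38.5% ± 0.614 at Hba and 39.2% ± 1.67 at Hbb. Slc25a37 had 46.3% ± 1.22. Eomes with 74.8% ± 0.649 and Foxa2 with 25.1% ± 0.336 still lay farther from an even split than the erythroid values. The length of chromosome on each side was not taken into account.

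Far interactions were on average more concentrated at developmental than at erythroid viewpoints, and Foxa2 and Lhx1 carried this difference. They were counted in 5 kb bins. The chance that 2 of them, taken from different libraries, fell in the same bin was divided by an expected chance. The expected chance came from a stepwise, never rising fit on distance. This fit was made on the same interactions, which therefore enter the expected value. A value of 1 means no concentration beyond distance. Foxa2 reached 4.57, 4.46 and 4.36 in libraries 1, 2 and 3 and Lhx1 2.85, 3.00 and 2.91. Eomes had 1.41, 1.36 and 1.33, which overlapped with Slc25a37 at 1.33, 1.36 and 1.33 and with Hbb at 1.34, 1.35 and 1.32. Hba was lowest with 1.14, 1.12 and 1.10.

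Foxa2 and Lhx1 were thus far above all erythroid viewpoints and Eomes was not. On the log2 scale the developmental mean was 1.39 ± 0.02 and the erythroid mean 0.33 ± 0.02, a difference of 1.06, 1.05 and 1.05 in the 3 libraries (fold 2.07, exact sign-flip p = 0.25). Each pair of libraries enters the values of both its members, so these SDs understate the spread. Without the Foxa2 viewpoint the difference was 0.67.

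The 20 bins richest in the other libraries held 18.7%, 18.3% and 17.8% of the far interactions of Foxa2 in the library left out of the choice, and 8.79%, 9.27% and 8.65% of those of Lhx1. The same share was 6.34%, 5.24% and 5.33% for Eomes and 5.02%, 5.49% and 5.88% for Hbb, which overlapped. Hba had 3.98% ± 0.240 and Slc25a37 2.96% ± 0.282. Developmental viewpoints averaged 10.9% ± 0.349 and erythroid ones 4.13% ± 0.0820, higher by 7.25, 6.74 and 6.42 points within libraries.

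Bins with the start of a protein-coding gene received more far interactions than distance gives at every viewpoint. At Foxa2 they held 1.92, 1.97 and 1.68 times the expected share in libraries 1, 2 and 3, at Eomes 1.75, 1.74 and 1.80 and at Lhx1 1.54, 1.68 and 1.57. Slc25a37 had 1.53, 1.68 and 1.42, overlapping with Lhx1 and just below Foxa2, whereas Hba had 1.21, 1.06 and 1.09 and Hbb 1.16, 1.12 and 1.11. In this measure the promoters that were CpG-rich over 2 kb, Slc25a37 among them, were above both CpG-poor globin promoters in every library. The grouping by CpG content was made after these values were seen. Between the kinds as defined, the log2 difference was 0.43, 0.51 and 0.49.

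**Figure D3:**
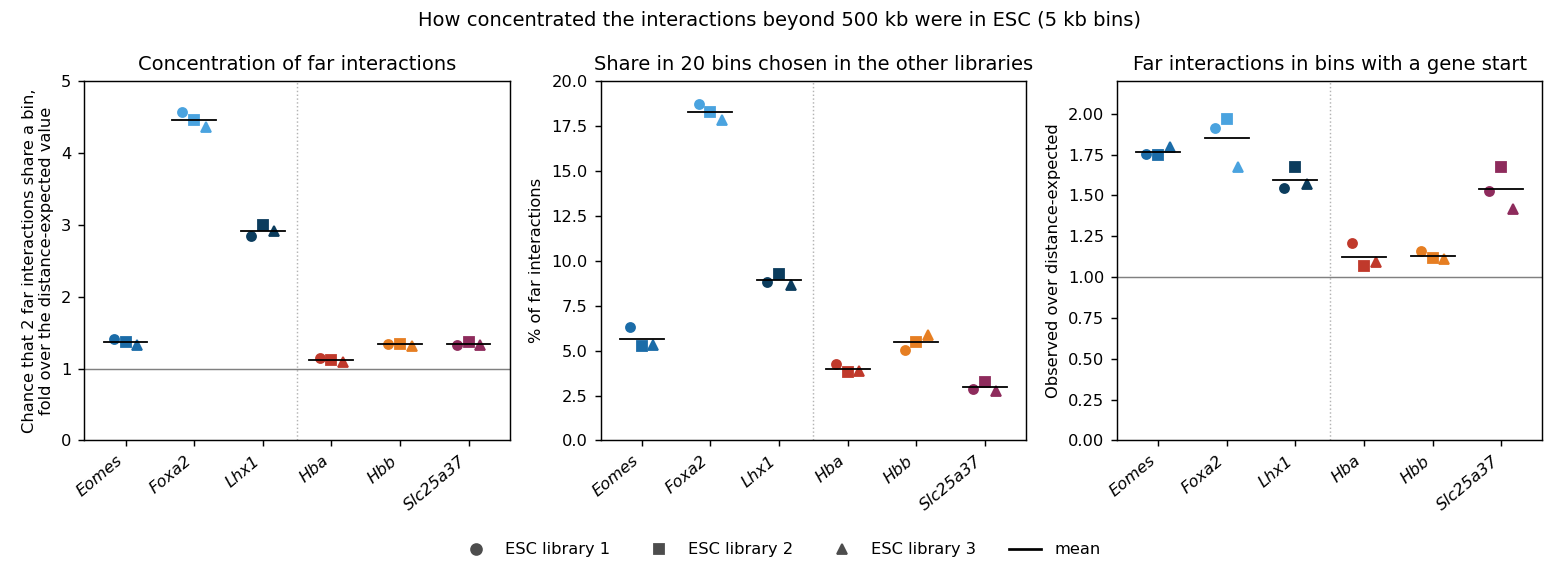
For each viewpoint and ESC library: the chance that far interactions from different libraries share a 5 kb bin, as fold over the distance-expected value (left), the share (%) of far interactions in 20 bins chosen in the other libraries (middle), and far interactions in bins with a gene start over the distance-expected value (right); bars are means and the horizontal line marks 1. Foxa2 and Lhx1 stand alone in the left and middle panels, while Eomes lies beside Hbb in both and Slc25a37 lies beside the developmental viewpoints on the right.

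The bins in which developmental viewpoints concentrated were next compared with a list of developmental regulators, that is, genes of the Hox, Pax, Nkx, Lhx, Fox, Sox, Tbx, Wnt, Zic and similar families. Bins with the start of a listed gene held 34, 38 and 27 far interactions of Eomes in libraries 1, 2 and 3 where 0.974, 1.59 and 0.918 were expected from distance. Foxa2 had 228, 349 and 173 against 23.6, 37.2 and 19.7 expected, and Lhx1 69, 127 and 49 against 10.3, 17.8 and 9.04. All 9 developmental columns were therefore above expectation by at least 5.42-fold.

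At the erythroid viewpoints the list held few interactions. Hba had 8, 10 and 15 interactions against 9.003, 13.9 and 8.34 expected, and Slc25a37 2, 3 and 2 against 0.883, 1.29 and 0.773. Hbb had 2, 0 and 0 against 0.340, 0.511 and 0.316, and a count of 0 allows up to 0.0975% and 0.157% of its far interactions in libraries 2 and 3. Depth cannot show a ratio for Hbb, whose chromosome carries only 9 such bins. Taken over each kind, listed starts received 8.85 times the expected share at developmental and 1.48 times at erythroid viewpoints, and the log2 difference was 2.27, 3.20 and 2.26 in the 3 libraries (exact sign-flip p = 0.25, adjusted p = 0.281).

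Member by member, 8 of 10 listed bins on the Eomes chromosome, 20 of 30 on that of Foxa2 and 22 of 31 on that of Lhx1 held at least 3 times their expected count in the pooled libraries. Among the starts of all other protein-coding genes on the same chromosomes, the shares at 3-fold were 17.9%, 17.3% and 20.4%. The numbers for Hba were 7 of 32 listed bins against 11.035% of other starts, for Hbb 2 of 9 against 5.21%, and for Slc25a37 2 of 8 against 20.0%. At these low counts 1 interaction is often enough for 3-fold. Without the listed genes, other starts still held 1.59 times the expected count at Eomes, 1.38 at Lhx1, 1.16 at Foxa2, 1.11 at Hba, 1.13 at Hbb and 1.56 at Slc25a37.

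Lhx1 and Hba lie on the same chromosome, 11, and so could meet the same partners, though from unlike distances. The Hoxb starts lay 11719 to 11889 kb from Lhx1 and 63861 to 64031 kb from Hba, with 0.513 and 0.394 expected in each bin. Otx1 lay 62436 kb from Lhx1 and 10281 kb from Hba. Raw counts of the 2 viewpoints are therefore not a matched contrast. In the 30 bins compared, each with a listed start farther than 500 kb from both, Lhx1 had 150 interactions against 23.2 expected and 21 bins above expectation. Hba had 32 against 29.5, with 12 bins above. The Hba viewpoint had 45308 far interactions in all and Lhx1 10654. From Lhx1, the start of Tbx4, a T-box factor of the hindlimb, received 44 interactions. The starts of the Hoxb genes, homeobox genes that pattern the body axis, received 3 to 9 each from Lhx1 and 0 to 2 each from Hba. Sox9, a regulator of cartilage, received 9 and 2. The starts of Sox15, Tbx2, Tbx21 and Meox1 received 0 from both.

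**Figure D4:**
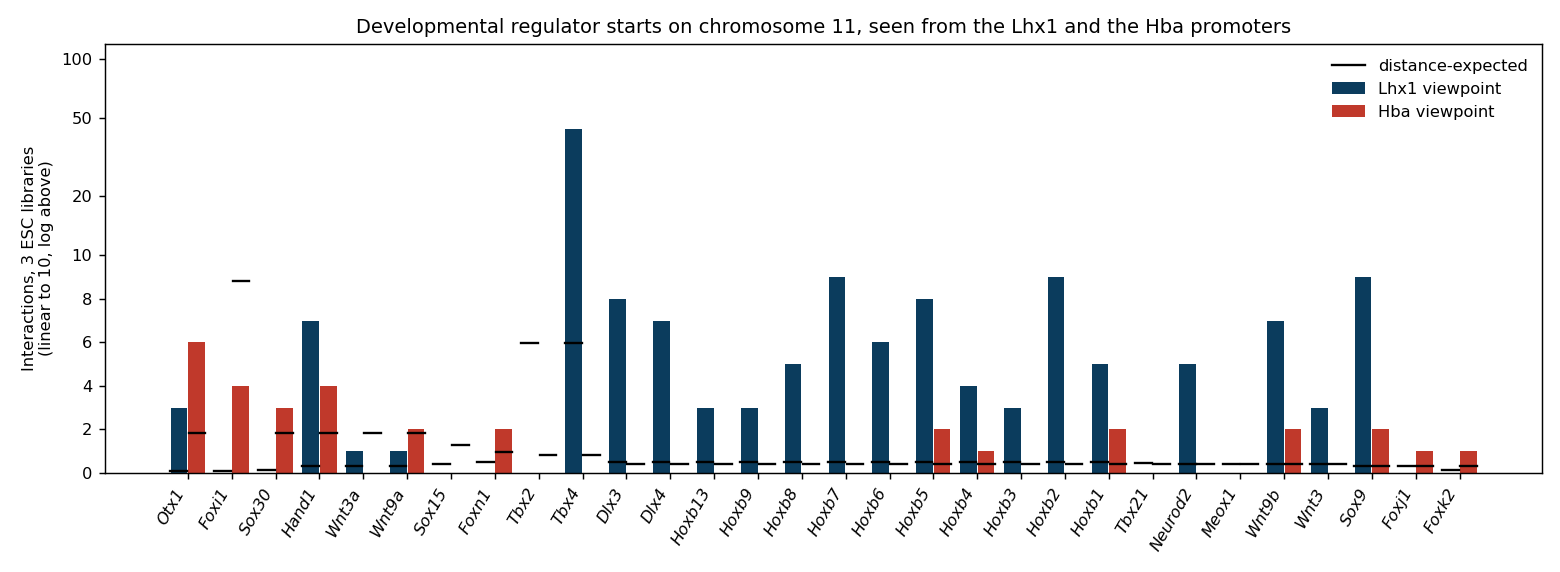
Interactions summed over 3 ESC libraries (axis linear to 10 and logarithmic above) in 30 bins of chromosome 11 that hold the start of a developmental regulator, in chromosomal order, from the Lhx1 and Hba viewpoints; black marks are the counts expected from distance. Lhx1 bars rise above their marks in 21 bins and Hba bars in 12, with 150 and 32 interactions in all.

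When the bins at and beside listed starts were left out, the difference in concentration between kinds nearly vanished. These were the bins with a listed start and the 2 bins on each side, and this choice was made after the data were seen. They numbered 121 on the Foxa2 chromosome and held 16.9% ± 0.915 of its far interactions (2.67% expected), 132 with 8.02% ± 0.375 for Lhx1 (1.64% expected) and 46 with 2.47% ± 0.389 for Eomes (0.135% expected). Without them the concentration of Foxa2 went from 4.46-fold to 1.09-fold and that of Lhx1 from 2.92-fold to 1.45-fold, while Eomes stayed near 1.36-fold. Hba, Hbb and Slc25a37 had 1.12-, 1.34- and 1.34-fold. The log2 difference between kinds was then 0.03, against 1.05 with all bins. Leaving out the bins with any gene start, but not their neighbours, gave 1.06.

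Single bins were called where they held at least 10 far interactions over the libraries and at least 3 times the distance-expected value in each. Foxa2 had 28 such bins of 35486 (0.0789%), Eomes 22 of 23949 (0.0919%) and Lhx1 17 of 23549 (0.0722%). Among erythroid viewpoints Hba had 28 of 23547 (0.119%), Slc25a37 4 of 24138 (0.0166%) and Hbb 0 of 28185 (0%). The called bins held 17.0% of the far interactions of Foxa2, 7.13% of those of Lhx1 and 3.32% of those of Eomes, against 1.10% for Slc25a37 and 0.740% for Hba. Hba had the most interactions to call bins with. With every library thinned to 1905 far interactions, 14 bins were called for Foxa2, 9 for Lhx1, 5 for Eomes, 0 for Hba, 1 for Hbb and 1 for Slc25a37.

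A gene start lay in 9 of the 22 called bins of Eomes, 7 of 28 of Foxa2, 5 of 17 of Lhx1, 3 of 4 of Slc25a37 and 0 of 28 of Hba. Of all far bins, the share with a gene start was 4.88%, 4.79%, 6.36%, 3.64% and 6.33%, in that order. The starts in called bins belonged to listed developmental regulators in 5, 4 and 2 cases for Eomes, Foxa2 and Lhx1, of 10, 30 and 31 listed bins, and in 0 for the erythroid viewpoints. Bins with only other starts were called in 4 of 1158, 3 of 1669 and 3 of 1466 cases for Eomes, Foxa2 and Lhx1 and in 3 of 870 for Slc25a37.

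The 5 bins highest over expectation from Eomes lay 19530 to 48780 kb away on chromosome 9. They included the start of Foxb1, a forkhead factor of the brain, with 7, 6 and 3 interactions in the 3 libraries against 0.302 expected in all. The start of Foxl2, a forkhead factor of the ovary, had 6, 7 and 9, and the bin beside it 10, 8 and 6, against 0.601 expected for each. The others had Tbx18 (4, 15 and 5 interactions) and Zic1 (8, 7 and 6 interactions) as nearest starts. The rule for called bins requires interactions in every library, and none of these bins had more than 24 in all.

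From Foxa2, 4 of the 5 bins highest over expectation were neighbours on chromosome 2, 42345 to 42360 kb away, and their nearest start was that of Pax6, the eye and brain paired box factor. They held 21, 15, 13 and 12 interactions against 0.283 expected in each. A bin 31985 kb away near Meis2, a partner of Hox proteins, had 17 and the second highest ratio, 60.0. The largest counts lay nearer. The start of Nkx2-2, a homeobox factor of the ventral neural tube and pancreas, 855 kb away, received 113, 184 and 78 interactions against 30.4 expected in all. That of Pax1, a paired box factor of the sclerotome, 685 kb away, received 68, 99 and 51 against the same 30.4. Both starts lay on the same step of the fit, which their own interactions entered. Nkx2-4 and Insm1 received 59 and 54.

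From Lhx1 the bin beside the start of Tbx4, 1364 kb away, had the largest count of the called bins, 38, 100 and 43 interactions against 5.95 expected in all, a ratio of 30.4. The start bin of Tbx4 itself had a ratio of 7.39.

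The called bins of the erythroid viewpoints were of another size. The highest ratio from Hba was 13.6, in a bin 56416 kb away with 6, 3 and 2 interactions, and the nearest start, that of Msi2, was 32.7 kb from it. The next 4 had ratios of 7.66 to 8.21 and nearest starts 41.4 to 169 kb away. From Slc25a37 the bins with the starts of Ebf2, Egr3 and Nefm, which encode 2 transcription factors and a neurofilament protein, had ratios of 6.29, 4.81 and 3.81 within 2051 kb. The start of Egr3 received 15, 33 and 12 interactions against 12.5 expected in all. None of these genes is in the list of erythroid genes. They are not in the list of developmental regulators either, which goes by gene family and also lacks Meis2. Counts of listed starts therefore do not cover every transcription factor in or near a called bin.

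Erythroid genes themselves were not met more often than distance gives by any viewpoint in a way these counts could show. The list held 1 to 8 bins per chromosome. Slc25a37 had 13 interactions at its 2 listed bins against 13.1 expected and Hba 7 at 3 bins against 4.05. Lhx1 had 2 at 8 bins against 1.28, and Eomes, Foxa2 and Hbb had 0.

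Interactions between chromosomes showed a difference between kinds at gene starts, though not in any single region. Of 1851 bins of 1 Mb on chromosomes without a viewpoint, limma on log2 signal called 0 (0%) between kinds at an adjusted p under 0.05, with 65 at an unadjusted p under 0.05. Those numbers were 0 and 87 in edgeR and 0 and 14 in DESeq2. In these fits each viewpoint was averaged or summed over its libraries. Their p-values thus measure the spread between viewpoints, 3 of each kind, and not that between libraries. Bins with a gene start on other chromosomes held 6.67% ± 0.465 of the trans interactions of Lhx1, 6.34% ± 0.386 of those of Eomes, 6.16% ± 0.162 of those of Foxa2 and 6.16% ± 0.3002 of those of Slc25a37. Hba had 5.51% ± 0.555 and Hbb 4.73% ± 0.157. The order again placed Slc25a37 with the developmental viewpoints, and Hba overlapped with several of them. Between kinds the difference was 0.556, 1.08 and 1.13 points (exact sign-flip p = 0.25).

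Per bin, listed developmental starts on other chromosomes received 3.36 ± 0.411 times as many interactions from Lhx1 as the average gene start, 3.15 ± 0.866 times from Eomes and 2.09 ± 0.873 times from Foxa2. From Slc25a37 the ratio was 1.94 ± 0.0942, from Hba 1.00 ± 0.612 and from Hbb 0.536 ± 0.467. The counts behind them over 3 libraries were 45, 47, 21, 29, 33 and 2 interactions, in that order, in 217 to 239 bins. Foxa2 ranged from 1.11 to 2.76 and overlapped with Slc25a37. The mean ratio was 2.87 ± 0.456 at developmental and 1.16 ± 0.267 at erythroid viewpoints, higher by 1.35, 2.13 and 1.65 in the 3 libraries (exact sign-flip p = 0.25). Listed erythroid starts received 0 to 5 interactions per viewpoint in trans over the 3 libraries. Their ratio was likewise higher at developmental viewpoints, 1.72 ± 0.929 against 0.781 ± 0.573, by 1.12, 0.526 and 1.17 (exact sign-flip p = 0.25).

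In the other cell types the contrast between kinds in concentration and at gene starts was smaller or reversed. Concentration differed by 0.01, 0.03 and 0.03 on the log2 scale in DE libraries 1, 2 and 3 and by -0.78, -0.83 and -0.70 in erythrocytes, where erythroid viewpoints were the more concentrated. Foxa2 had a mean of 1.44-fold in DE and 1.18-fold in erythrocytes, Lhx1 1.17- and 1.14-fold. Slc25a37 had 1.17-fold in DE and 2.02-fold in erythrocytes and Hba 1.11- and 1.84-fold. Gene start bins followed the same order, with kind differences of 0.43 to 0.51 in ESC, 0.18 to 0.23 in DE and -1.21 to -0.95 in erythrocytes. At listed developmental starts the difference was 2.01, 2.25 and 1.59 in DE, where developmental viewpoints had 2.96 and erythroid ones 0.767 times the expected share, and the ESC mean exceeded that of DE by 0.63. In erythrocytes it was 0.34, -2.89 and 0.50, from only 0 to 16 interactions at listed starts per column. Library 2 held 1, 1 and 0 at Eomes, Foxa2 and Lhx1 and 4, 3 and 0 at Hba, Hbb and Slc25a37. The far share differed more between kinds in DE than in ESC, by -8.30 against -2.63 points, and the slope more in erythrocytes, by 0.27 against 0.03. In concentration, gene starts and listed starts, ESC libraries did not overlap with either of the other groups. Each comparison gave the smallest p that 3 against 3 libraries allow (exact two-sided permutation p = 0.1, adjusted p = 0.12 over 18 comparisons). For listed starts in erythrocytes this rests on the few interactions given above.

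The called bins can be followed across cell types, with the ESC values as a description only, since the bins were chosen there. Those of Foxa2 held 16.9% of its far interactions in ESC and 3.23%, 3.74% and 4.19% in the DE libraries, which was 3.11 times the share expected in DE. The ratio in DE was 2.87 for Lhx1 and 2.85 for Eomes, against 1.89 for Slc25a37 and 1.83 for Hba. In erythrocytes all 5 were between 1.23 and 1.49, from 6 to 63 interactions. At the start of Nkx2-2 the Foxa2 viewpoint had 258, 267 and 214 interactions per 10000 far interactions in ESC and 37.2, 42.5 and 47.9 in DE. Tbx4 seen from Lhx1 had 57.5, 33.3 and 38.6 in ESC and 6.05, 5.86 and 1.83 in DE. Both starts lay in called bins, which were chosen for high ESC values, so their lower DE values are a description and not a separate test.

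**Figure D5:**
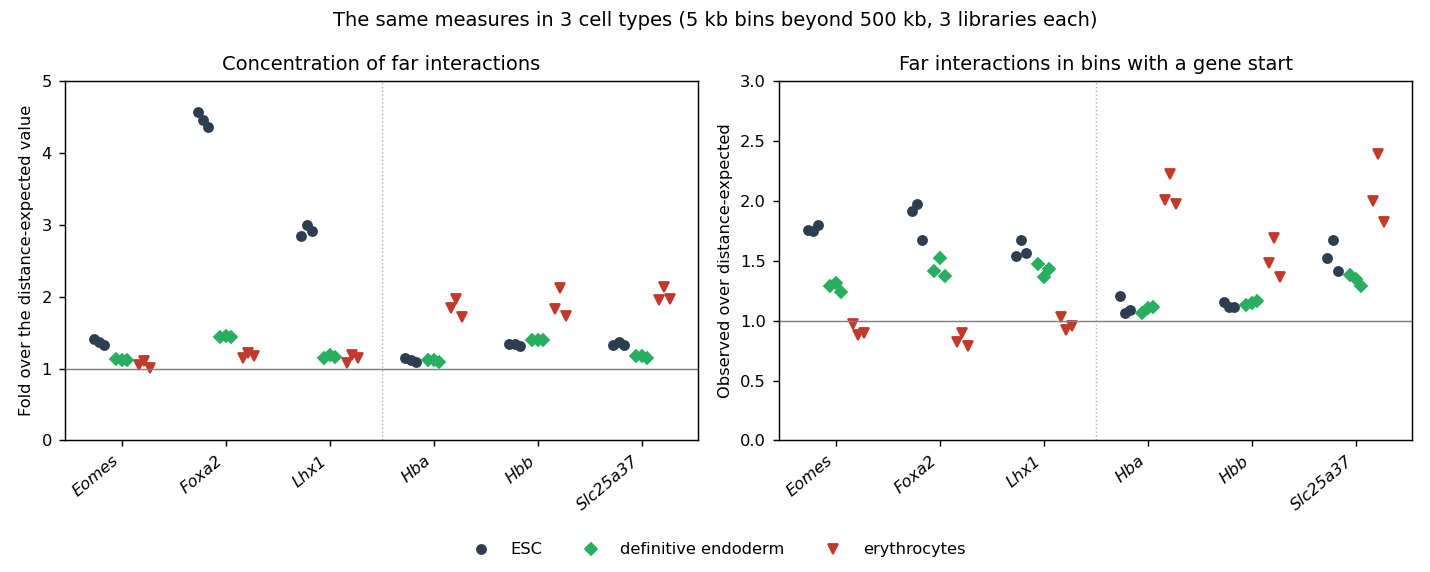
Concentration of far interactions as fold over the distance-expected value (left) and far interactions in bins with a gene start over the distance-expected value (right), for each viewpoint in 3 ESC, 3 definitive endoderm and 3 erythrocyte libraries; the horizontal line marks 1 and the dotted line parts developmental from erythroid viewpoints. ESC points are the highest at the 3 developmental viewpoints, with Foxa2 above 4, and erythrocyte points are the highest at the 3 erythroid viewpoints.

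Among erythrocyte libraries, replicate 2 differed in its shares from the others. Its trans share was 24.9% at Eomes, against 59.1% and 60.7% in libraries 1 and 3, and 28.3% at Hba, against 72.1% and 73.5%. The far share of erythroid viewpoints was lower than that of developmental viewpoints by 9.79, 16.1 and 7.30 points in erythrocyte libraries 1, 2 and 3, and the near share differed by 3.12, -1.87 and 7.12 points. The near comparison between ESC and erythrocytes, 0.52 points in the mean, became -1.80 without that library. The far share kept its opposite sign in ESC, where developmental viewpoints were lower.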

How the data were processed

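NG Capture-C libraries of ESC, DE and erythrocytes, captured for 6 promoters, were analysed from per-fragment tables. The authors trimmed and mapped reads (Trim Galore, Bowtie and the mm9 build, NCBIM37, in the submitters' processing notes, without versions), gave each read pair to its DpnII fragments and deposited 1 signal value for every fragment and viewpoint, scaled to 100000 interactions per column, with replicates kept apart. Duplicate handling is not given in the sources used here. All ESC values (100%) came out as whole reads, with a tolerance of 0.05 read, so interactions were counted as reads. Of 97940 listed fragments on the viewpoint chromosomes, 97935 matched a DpnII digest of NCBIM37 at both ends, and bins were taken from that digest. Captured fragments carry no values. Enhancer-capture tables were not used.

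Groups came from the labels. The members and gene lists were chosen with earlier results of these data known. The rule for named bins took, per viewpoint, up to 5 called far bins by ratio to the distance-expected value, with genes from GENCODE vM1. A few items that fall under this rule or the lists are not reported here. Distance expectations came from isotonic regression (scikit-learn 1.9.0) over the 3 libraries. Exact permutation tests compared libraries, with viewpoint kinds compared within a library. Trans bins of 1 Mb with a pseudocount of 10 were fitted in limma 3.58.1, with edgeR 4.0.16 and DESeq2 1.42.0 on recovered reads as alternatives. The adjusted p is Benjamini-Hochberg's. The far-bin rule and the trans model were tested on simulated data. Other limits of near and far, other bins, each library and each viewpoint left out were tried.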

Additional observations from a re-analysis of the deposited data

Results flagged for a closer look

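Several differences between developmental and erythroid viewpoints had opposite signs in every library of ESC and of another cell type. An exact permutation test of 3 against 3 libraries gave its smallest possible p of 0.1 for each (adjusted p = 0.12 over 18 comparisons), so none passed a threshold. Opposite signs in every library fix this p in advance, so the test adds nothing to them. Erythrocytes also differ from ESC in strain, which cannot be told apart from the cell type.

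Against erythrocytes, developmental minus erythroid viewpoints gave -2.63 points of far share in ESC and 11.1 in erythrocytes. Concentration gave 1.05 and -0.77 on the log2 scale, the share of the 20 top bins 6.81 and -0.69 points, and far interactions at gene starts 0.47 and -1.04 on the log2 scale.

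Against DE, the share from 20 to 500 kb gave -0.89 points in ESC and 6.26 in DE, the decay slope 0.0303 and -0.106, and the share of the 20 top bins 6.81 and -0.48 points. The signs of the 20 to 500 kb share and of the slope in ESC rested on single viewpoints, as they turned without Hba.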

How the results depend on the processing

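In ESC, the differences between kinds in near share, concentration, the share of the top bins, gene starts and developmental regulator starts kept their direction under all 70 alternatives tried for them. Concentration ranged from 0.03 to 1.52 on the log2 scale, lowest without the bins at and beside developmental regulator starts. Other directions depended on the setting. The 20 to 500 kb share turned to 0.44 points with a near limit of 50 kb, 1.21 without Foxa2 and 1.45 without Hba, the far share to 1.47 without Hbb, and the decay to -0.0178 over 50 kb to 2 Mb and -0.0416 without Hba. The trans share turned to -0.64, -0.87, -2.34 and -2.13 points without Eomes, Lhx1, Hba and Hbb, and ranged from -0.43 to 1.05 points with 1 library left out.

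Counts of called far bins followed the thresholds and depth. With at least 6 interactions they were 45 for Eomes, 46 for Foxa2, 41 for Lhx1, 90 for Hba and 18 for Slc25a37. At 2 times the expected value they were 62 for Hba, 12 for Hbb and 14 for Slc25a37, and at 5 times 14 for Eomes, 3 for Hba and 1 for Slc25a37. Thinned libraries gave 5, 14, 9, 0, 1 and 1 for Eomes, Foxa2, Lhx1, Hba, Hbb and Slc25a37. With 1 library left out the counts were 9 to 20 for Eomes, 10 to 14 for Lhx1 and 1 to 3 for Hbb, with Eomes at 12 without library 1 and 9 without library 2, and Lhx1 at 10 without library 1.

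Against erythrocytes, the kind difference in near share ranged from -1.80 to 2.69 points with 1 library left out and was -0.36 without Lhx1 and -0.59 without Slc25a37. That between 20 and 500 kb ranged from -1.29 to 2.94 points and was -0.13 without Eomes and -0.63 without Slc25a37, and against DE the log2 difference at developmental regulators was -0.0504 without Hba. The cause of these changes was not tested. Without the replicate block, the exact 3 against 3 test of the concentration difference, 1.05, gave p = 0.1, the smallest it allows, and with the replicate block 0 trans bins were called, as under every other trans setting. Depth limits the counts at Hbb, with 7031 far interactions, and all trans lists.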
